A study of Mus musculus with 18 samples.

Results

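The RNA of 3T3-F442A adipocytes given growth hormone (GH) for 4 h was compared with that of control adipocytes of the same time point. 3T3-F442A cells are preadipocytes of the mouse, an established line that fills with fat droplets when differentiated in culture. Of the 18 arrays of the study, the 3 titled GH 4 h and the 3 titled Control 4 h were used, 6 in all, with 1 array of each kind in each of experiments 1, 2 and 3. The other 12 arrays hold GH and control adipocytes at 30 min and 48 h, again 3 of each. Every group is the same line in the adipocyte state, and the labels name no genotype, agent or treatment other than GH. The hormone's dose and source, the medium, the way the cells were differentiated and the days spent in culture are not given in the sources used here. A single line can differ from fat tissue, which also holds blood vessels, immune cells and precursor cells.

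GH is a pituitary hormone that binds a receptor paired with the tyrosine kinase JAK2. The kinase activates STAT transcription factors, above all STAT5, and also the ERK and phosphoinositide 3-kinase pathways. STAT5 turns on feedback inhibitors of the SOCS family and, in many tissues, Igf1. In fat cells GH is known for opposing insulin and for favouring the release of stored fat.

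RNA was measured on Affymetrix MG_U74Av2 arrays, on which a set of short probes reports 1 transcript as a signal. After 66 control probe sets were left out, 12422 probe sets were compared. Of these, 10833 had 1 gene symbol in the platform table, 396 had several and 1193 had none, and together the single symbols named 8251 genes. The signals had been scaled before deposit, since the mean of each array without the top and bottom 2% was 500.3 on all 6. Median signals ran from 156 to 174, the highest being that of the GH array of experiment 3, which also had the lowest mean correlation with the other 5 arrays (0.958, against 0.963 to 0.966). The signal ratio of the 3' to the 5' probe sets of Gapdh lay between 0.724 and 0.931 and that of Actb between 1.28 and 1.99. The highest signal of 19 yeast and Bacillus control probe sets on these arrays was 104.1, and a probe set with both group means under it is called near background.

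The arrays were grouped by title, and 1 of the 6 has a description that names another group. The GH 4 h array of experiment 3 is described as GH 30 min. Its Fos signal of 60.6 lay beside the 83.1 and 80.2 of the other GH 4 h arrays, while the GH 30 min arrays ran from 5408 to 7900. Its Cish signal of 821 likewise stood beside 896 and 904, against 113 to 218 on the GH 30 min arrays. A GH 30 min array and a Control 48 h array also have a description of another group, and neither is among the 6.

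GH changed 45 of 12422 probe sets at 4 h, which is 0.362%. Of these, 31 rose (0.25%) and 14 fell (0.113%). The largest increases were in the cytokine feedback inhibitors Socs2 and Cish, the phosphoinositide 3-kinase subunit Pik3r1, the stress gene Gadd45g and the gap junction gene Gja1. The largest decreases were in the repressor Bcl6, the growth arrest gene Gadd45a and the chemokine Cxcl1. The 31 stood for 28 genes, since Atf3 and Rgs16 had 2 probe sets each, and for 1 probe set with several symbols, which rose by 1.15 ± 0.16 and is not named. The 14 stood for 14 genes. The test was limma on log2(signal + 25), with all 18 arrays in the fit and the experiment as a block, and p-values were adjusted by Benjamini-Hochberg over the 12422 with a threshold of 0.05. An unadjusted p under 0.05 was reached by 10.3% of all probe sets, 5.22% on the higher side and 5.11% on the lower side. Log2 changes are GH minus control ± the standard error (SE), with 3 arrays a group. Since 25 was added before the logarithm, they understate the change of dim probe sets. Nothing in the labels says that the numbered experiments were separate cultures, so the p-values measure the spread between these arrays. Whether a lower signal came from fewer expressing cells or from less RNA per cell cannot be told apart.

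All 45 had the same sign in each of the 3 experiments, against 30.8% of all probe sets. The 3 GH arrays lay above the 3 control arrays in 27 of the 31 that rose, against 6.26% of all, and below them in all 14 that fell, against 5.13% (11.4% of all in either direction). The 45 were picked by a test on these same arrays, so these counts describe them and are no separate support. The median change of the 31 was 1.27, and that of the 14 was -1.03. Calls came mostly from brighter probe sets, as 27 of the 31 increases and 12 of the 14 decreases had a mean signal of at least 165. Of all 12422 probe sets, 3105 had a mean signal from 165 to 599 and 3106 a higher one. Of the 45, Chic1 alone was near background.

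**Figure D1:**
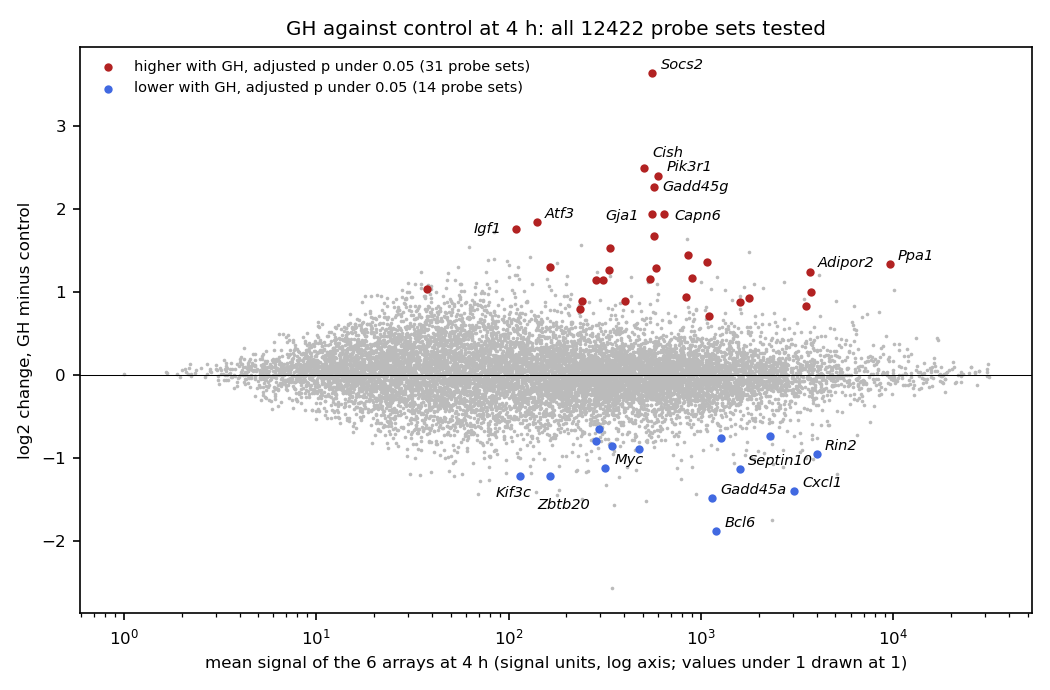
Log2 change between GH and control at 4 h (vertical) against the mean signal of the 6 arrays (horizontal, log axis), with 1 point for each of 12422 probe sets. The 31 red points passed the test as higher and the 14 blue points as lower. Socs2 stands highest at 3.65 and Bcl6 lowest of the coloured points at -1.87, and several grey points with changes as large did not pass.

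The count of calls depended on the fit and on single arrays. Without the block 15 probe sets passed, 14 higher and Myc lower, all of them among the 45. With the 6 arrays fitted alone, limma called 0 probe sets, while 1112 had an unadjusted p under 0.05 with the block and 794 without it. Without the GH array of experiment 3, the one described as GH 30 min, 210 passed and 42 of the 45 were among them. Leaving out another of the 6 arrays gave 15 to 33. Socs2, Cish, Pik3r1, Gadd45g, Gja1, Adipor2 and Nabp1 passed under every alternative that drew on the other time points.

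The feedback inhibitors of the GH receptor gave the largest increases. Socs2 encodes a SOCS protein that limits GH receptor signalling. Its signal was 69.8, 28.0 and 83.3 on the control arrays of experiments 1, 2 and 3, and 837, 738 and 1600.3 on the GH arrays. Every GH array stood far above every control array, and the rise was 3.65 ± 0.32 on the log2 scale, or 12.5-fold (adjusted p = 0.000169). Cish encodes CIS, the SOCS family member that competes for STAT5 docking sites on cytokine receptors. Its control signals were 195, 88.2 and 134, and its GH signals were 896, 904 and 821. The GH arrays were nearly level and the controls were spread out below them, with a rise of 2.50 ± 0.20 (adjusted p = 0.000169). The other members with a probe set, Socs3 and Socs1, did not pass at 4 h (Socs3 0.90 ± 0.42 and Socs1 0.15 ± 0.21). That Socs3 probe set read 291, 286 and 65.1 in controls and 226, 409 and 505 with GH. It was lower with GH in experiment 1, and its largest rise was in experiment 3. The other Socs3 probe set had 0.42 ± 0.21.

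The start of Cish is shown because this gene was among the 2 with the lowest p and its RefSeq window (GRCm38.p6, chr9:107296409-107296708, plus strand) holds the STAT-type motif TTCNNNGAA. The window runs from 250 bases before the annotated gene start to 50 after it. The capitals mark its 2 matches, at window bases 251 to 259 and 262 to 270, the first beginning at the annotated start.
Cish: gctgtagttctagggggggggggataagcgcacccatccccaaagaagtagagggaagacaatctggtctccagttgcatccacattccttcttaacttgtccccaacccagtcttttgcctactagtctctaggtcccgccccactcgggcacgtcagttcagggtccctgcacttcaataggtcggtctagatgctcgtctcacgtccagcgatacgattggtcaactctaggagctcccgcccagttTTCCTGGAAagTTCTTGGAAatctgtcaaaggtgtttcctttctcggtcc
The motif is its own reverse complement, so both strands give the same matches, and 8.3% of the 32851 mouse windows of this length hold at least 1. Windows were found for 5 of the 6 genes searched, and TTCNNNGAA had no match in those of Pik3r1, Gadd45g, Adipor2 and Gja1. The cyclic AMP response motif TGACGTCA had no match in any of them, and 1.79% of all windows hold it. The E-box CACGTG, held by 7.15% of all windows, matched once, in Gadd45g. These are matches of letters, and no binding was measured.

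Genes that carry or damp signals inside the cell rose as well. Pik3r1 encodes p85 alpha, the regulatory subunit of the lipid kinase that insulin activates. It read 134, 184 and 159 on the control arrays and 1026, 1561 and 524 on the GH arrays. All GH arrays were higher, that of experiment 3 least so, and the rise was 2.41 ± 0.22 (adjusted p = 0.000169). Adipor2, which encodes a receptor for adiponectin, had a smaller and very even change. Its log2 change was 1.18, 1.21 and 1.36 in experiments 1, 2 and 3, from a mean signal of 2162 ± 125 to 5195 ± 584 (SD, n = 3), which gave 1.25 ± 0.13 (adjusted p = 0.000526).

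Rgs16 and Rap1gap, which regulate G proteins, rose too. Rgs16 encodes a protein that speeds the switching off of G protein alpha subunits. The brighter of its probe sets that passed read 507, 496 and 346 in controls and 1251, 1199 and 1337 with GH, a rise of 1.46 ± 0.21 (adjusted p = 0.00635). The groups did not overlap, and the other probe set rose by 1.15 ± 0.22 (adjusted p = 0.0434). Rap1gap, which encodes an inactivator of the small G protein Rap1, read 262, 103 and 142 in controls and 489, 541 and 493 with GH. It rose by 1.54 ± 0.26 (adjusted p = 0.0322), with its smallest change in experiment 1. Of 13 measured genes in the list of G protein regulators, these 2 rose and 0 fell, against 25 and 12 of all 8251 genes. That list was chosen with earlier results of these data known, so its count is a description and not a test. At an unadjusted p under 0.05 by limma, 2 were higher and 1 was lower. The median of the list was 0.04, and Rgs2 and the dim Rgs5 had -0.67 ± 0.17 and -0.67 ± 0.32. Dab2, an endocytic adaptor, rose by 1.27 ± 0.23 (adjusted p = 0.0379), and its other probe sets gave 1.20 ± 0.24 and 1.64 ± 0.49 without passing. Spsb1, which encodes a SOCS-box protein, rose by 0.90 ± 0.16 (adjusted p = 0.0379), beside 0.85 ± 0.18 from its other probe set, which did not pass.

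The GADD45 genes, which encode small proteins of the stress and growth arrest response, moved apart. Gadd45g read 132, 134 and 308 in controls and 1004, 846 and 1018 with GH. It rose by 2.27 ± 0.21 (adjusted p = 0.000169), and the control of experiment 3 was the highest of the controls. Gadd45a, a target of p53, went the other way, from 2065, 1902 and 1081 to 492, 443 and 832. It fell by 1.47 ± 0.27 (adjusted p = 0.0412), and the groups did not overlap although the change in experiment 3 was only -0.37. Gadd45b did not pass, with changes of -2.04, -2.04 and 0.10 in the 3 experiments. The RefSeq window of Gadd45g (GRCm38.p6, chr13:51846425-51846724, plus strand) is shown for its E-box, in capitals at window bases 109 to 114.
Gadd45g: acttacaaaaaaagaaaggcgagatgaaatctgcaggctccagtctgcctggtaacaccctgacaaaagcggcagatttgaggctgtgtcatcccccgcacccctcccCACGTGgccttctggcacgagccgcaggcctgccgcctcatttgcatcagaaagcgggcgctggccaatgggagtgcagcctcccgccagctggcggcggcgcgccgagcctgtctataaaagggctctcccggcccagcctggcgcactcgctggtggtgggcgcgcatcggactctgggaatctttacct
No other searched motif matched in it.

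Transcription factors of the early response were divided. Atf3, a stress-induced factor of the ATF family, had 2 probe sets that passed. The first read 27.6, 29.7 and 89.7 in controls and 302, 246 and 148 with GH, a rise of 1.85 ± 0.33 (adjusted p = 0.0379). The brighter one read 199, 324 and 176 in controls and 1282, 1126 and 322 with GH, a rise of 1.68 ± 0.28 (adjusted p = 0.0308). In both, experiment 3 had the smallest change and the lowest GH array, and in the brighter one that array lay just below the control of experiment 2. A probe set near background gave 0.05 ± 0.11. Myc, a driver of growth and division, read 528, 398 and 396 in controls and 229.5, 155 and 188 with GH. The groups did not overlap, and it fell by 1.11 ± 0.15 (adjusted p = 0.0059).

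Cell contact and cytoskeletal genes gave some of the largest changes. Gja1 encodes connexin 43, the channel protein of gap junctions. Its signals were 260.3, 163 and 212 in controls and 992, 1053 and 642 with GH. All GH arrays were well above the controls, and the rise was 1.95 ± 0.21 (adjusted p = 0.000794), while its other probe set, near background, had 1.07 ± 0.21. Capn6, a calpain family member that stabilises microtubules, read 206, 122 and 503 in controls and 1353, 699 and 990.2 with GH. It rose by 1.94 ± 0.35 (adjusted p = 0.0401) from a control in experiment 3 that was the highest of the controls. Its other probe sets gave 1.73 ± 0.37 and 1.12 ± 0.29 without passing. Nid2, a basement membrane protein, rose by 1.18 ± 0.22 (adjusted p = 0.0426) with overlapping groups.

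**Figure D2:**
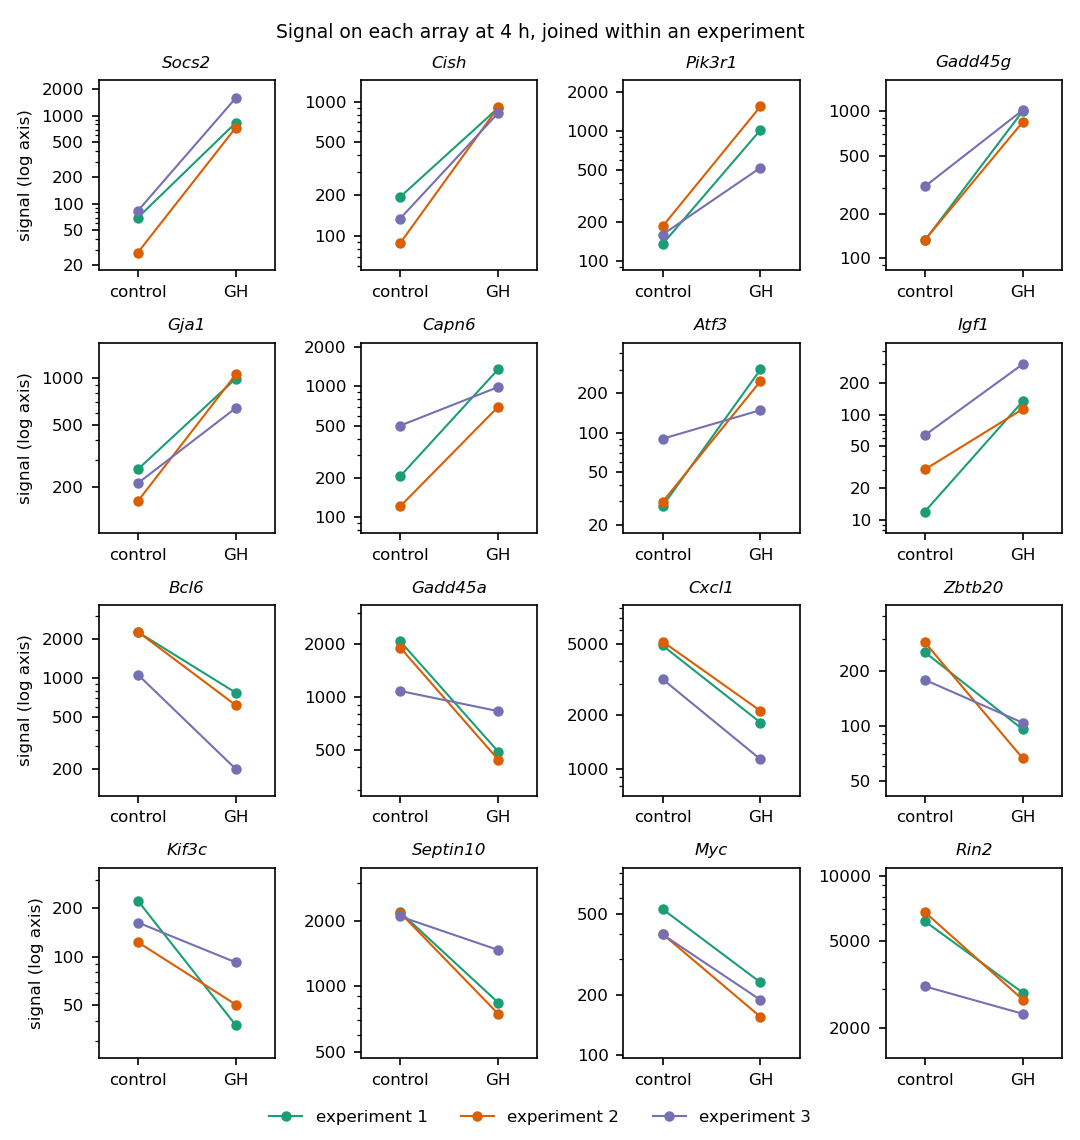
Signal (log axis, a separate range in each panel) of the 8 genes with the largest increases and the 8 with the largest decreases on each of the 6 arrays, with lines joining control and GH of an experiment. For Atf3 the probe set with the larger change is drawn. Every line runs in the direction of the test. The purple line of experiment 3 is the flattest for Atf3, Capn6, Pik3r1, Gadd45g, Gja1, Gadd45a, Septin10, Kif3c, Zbtb20, Rin2 and Myc. Another experiment has the flattest line for Socs2, Cish, Igf1, Cxcl1 and Bcl6.

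Among secreted factors, Igf1, the growth factor through which GH is best known to act, gave a call that rested on a dim probe set. That probe set read 12, 30.1 and 63.7 in controls and 134, 113 and 302 with GH. The groups did not overlap, and the rise was 1.77 ± 0.21 (adjusted p = 0.00166). The brighter Igf1 probe set, from 895 ± 93.0 to 1069 ± 67.7 (SD, n = 3), did not pass, with 0.25 ± 0.17 (adjusted p = 0.673). Gdf5, a ligand of the BMP family, read 87.3, 75.8 and 88.7 in controls and 295, 229.5 and 211 with GH. It rose by 1.30 ± 0.17 (adjusted p = 0.00379), without overlap. The chemokine Cxcl1, which attracts neutrophils, read 4914, 5174 and 3182 in controls and 1814, 2110 and 1128 with GH. It fell by 1.39 ± 0.25 (adjusted p = 0.0379) by much the same amount in each experiment, beside -1.18 ± 0.26 from a brighter probe set that did not pass (adjusted p = 0.0867). Ptges, which makes prostaglandin E, rose by 0.89 ± 0.16 (adjusted p = 0.0379).

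Metabolic enzymes were among the increases. Ppa1, the cytosolic pyrophosphatase that clears a by-product of many syntheses, was bright throughout. It read 6740.3, 5143 and 4332 in controls and 17076, 12962 and 11162 with GH. The change was nearly the same in each experiment (1.34, 1.33 and 1.36), and the rise was 1.34 ± 0.17 (adjusted p = 0.00252). Prps1, which makes the ribose precursor of nucleotides, rose by 1.00 ± 0.18 (adjusted p = 0.0406). Abhd5, also called CGI-58, activates the lipase that begins the breakdown of stored fat. It went from 2504 ± 603 to 4502 ± 1045 (SD, n = 3), a rise of 0.84 ± 0.14 (adjusted p = 0.0351).

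Genes of the secretory pathway and of vesicles also passed. Fkbp11, a protein-folding enzyme of the endoplasmic reticulum, rose by 1.17 ± 0.17 (adjusted p = 0.00635). Of the enzymes that finish the sugar chains of glycoproteins, St3gal4, a sialyltransferase, rose by 0.93 ± 0.18 (adjusted p = 0.0426). Fut8, which adds the core fucose, read 508, 321 and 283 in controls and 212, 206 and 176 with GH and fell by 0.79 ± 0.15 (adjusted p = 0.0426). Atp6v0a2, a subunit of the proton pump of vesicles, rose by 0.89 ± 0.16 (adjusted p = 0.0379), but its other probe sets gave 0.38 ± 0.20 and 0.28 ± 0.21 and did not pass. Tbc1d14, a Rab-binding protein of recycling vesicles, rose by 0.94 ± 0.12 (adjusted p = 0.00252). Rin2, an activator of Rab5, read 6163, 6788 and 3094 in controls and 2893, 2689 and 2314 with GH. It fell by 0.94 ± 0.17 (adjusted p = 0.0379), from a control in experiment 3 that was far lower than the others.

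Single genes of other kinds completed the increases. Nabp1, a protein that binds single-stranded DNA, read 674, 521 and 574 in controls and 1716, 1249 and 1754 with GH, a rise of 1.37 ± 0.16 (adjusted p = 0.00183). Igtp, an interferon-inducible GTPase, read 241, 518 and 183 in controls and 769.8, 1431 and 358 with GH, a rise of 1.29 ± 0.24 (adjusted p = 0.0426). The groups were apart for Nabp1 and overlapped for Igtp. Ifi35, another interferon-induced gene, rose by 0.72 ± 0.13 (adjusted p = 0.0401). Tnfaip1, an adaptor of ubiquitin ligases, rose by 0.81 ± 0.15 (adjusted p = 0.0426) with overlapping groups, beside 0.04 ± 0.28 from its other probe set. Chic1 rose by 1.04 ± 0.19 (adjusted p = 0.0379), with mean signals of 15.4 ± 1.36 and 60.4 ± 23.0 (SD, n = 3) that do not clear the background level.

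Bcl6 had the largest decrease of all, and other regulators of transcription fell less. Bcl6, a zinc finger repressor that STAT5 is known to silence in other cells, read 2260.5, 2271 and 1065 in controls and 773, 619.9 and 201 with GH. The groups did not overlap, and it fell by 1.87 ± 0.24 (adjusted p = 0.00278). Zbtb20, a repressor of the same BTB zinc finger family, read 252, 286 and 178 in controls and 95.3, 66.1 and 104 with GH. It fell by 1.21 ± 0.22 (adjusted p = 0.0406), again without overlap. Ezh1, a histone H3 methyltransferase of the Polycomb complex, read 612, 748 and 510.4 in controls and 269, 318 and 387 with GH. Its fall of 0.89 ± 0.16 (adjusted p = 0.0379) was smallest in experiment 3. Stat3, itself a target of JAK kinases, read 1903, 1741 and 1204 in controls and 933, 1072 and 816 with GH on the probe set that passed. That fall was 0.75 ± 0.14 (adjusted p = 0.0426), and the brighter probe set had -0.61 ± 0.16 without passing (adjusted p = 0.148).

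The remaining decreases were in genes of the cytoskeleton, of Ras signalling and of membranes. Kif3c, a kinesin motor subunit, read 223, 123 and 163 in controls and 37.7, 50.6 and 92.4 with GH, a change of -1.21 ± 0.22 (adjusted p = 0.0379). Septin10, a filament-forming GTPase, read 2197, 2182 and 2098 in controls and 844, 749 and 1472 with GH, a change of -1.12 ± 0.22 (adjusted p = 0.0464). Its controls were nearly level, and the GH array of experiment 3 was the highest of the GH arrays. Dab2ip, a Ras-inactivating protein, read 332, 482 and 539 in controls and 163, 272 and 286 with GH, a change of -0.85 ± 0.16 (adjusted p = 0.0426). Pmp22, a tetraspan membrane protein, fell by 0.72 ± 0.12 (adjusted p = 0.0351), and its other probe set, near background, had 0.41 ± 0.17. Stk11ip, a partner of the kinase LKB1, fell by 0.64 ± 0.12 (adjusted p = 0.0406).

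**Figure D3:**
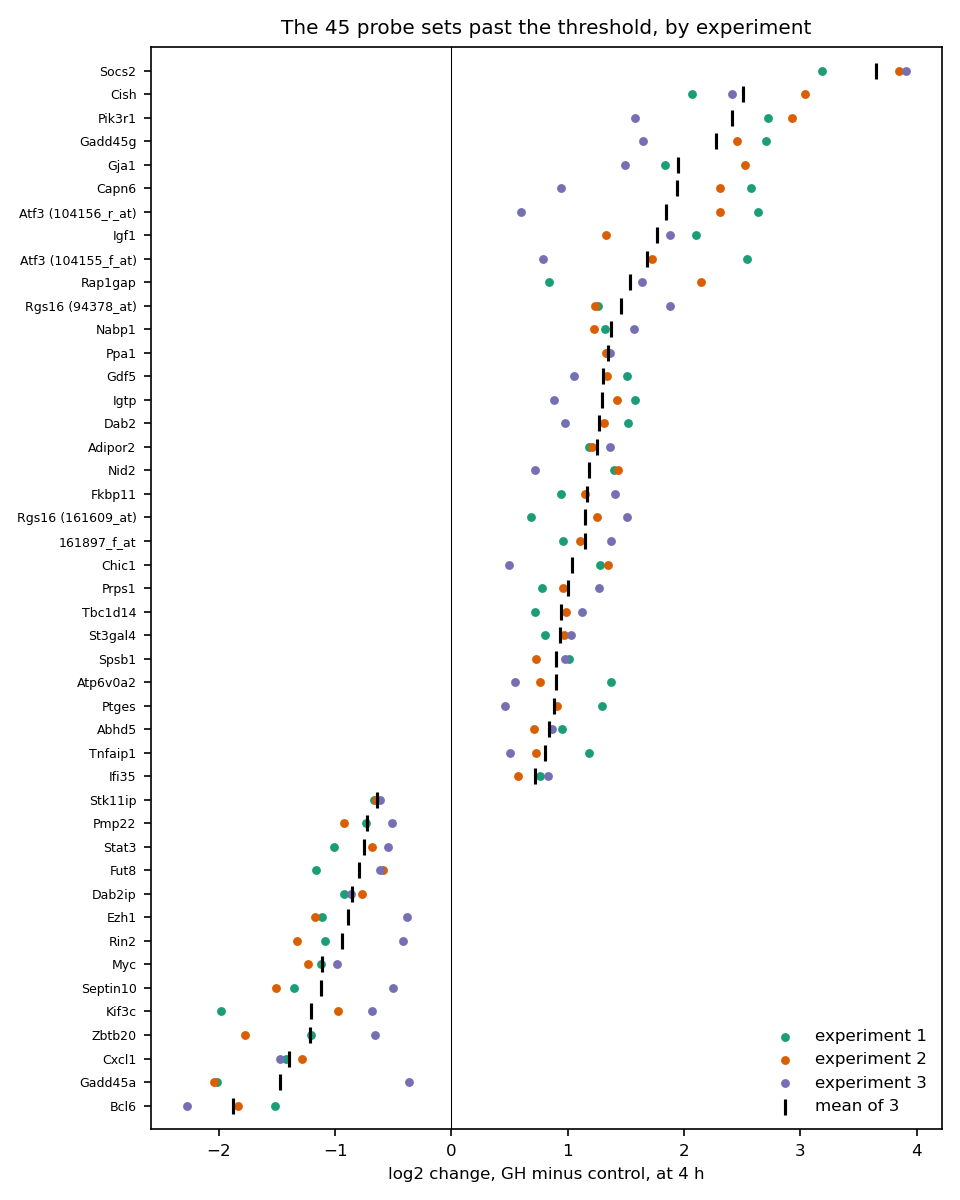
Log2 change between GH and control in experiments 1, 2 and 3 (horizontal, coloured points) for each of the 45 probe sets that passed (vertical, in order of the fitted change). All 3 points of every probe set lie on 1 side of 0, and experiment 3 is the point nearest 0 for 14 of the 31 that rose and 10 of the 14 that fell.

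Over the whole array, the changes of experiment 3 were the least like those of the other experiments. Across the 12422 probe sets, the changes of experiments 1 and 2 had a correlation of 0.268. Those of experiment 3 had 0.0614 with experiment 1 and 0.0429 with experiment 2. Genes are not independent replicates, so these describe the arrays only. The median change of the 14 that fell was -1.14, -1.20 and -0.61 in experiments 1, 2 and 3, and that of the 31 that rose was 1.32, 1.31 and 1.12. Among the 7437 probe sets above background, 135 changed by 1 or more on the log2 scale in the same direction in experiments 1 and 2, while 24 did so in all 3 experiments. In 70 probe sets the change was 1 or more in experiments 1 and 2 and under 0.5 in experiment 3. The control of experiment 3 lay beyond the other controls, in the direction of the change, in 58 of the 70. Its GH array fell short of the other GH arrays in 52. The 70 were picked by these same changes, so a shift in that experiment was built in and the counts are descriptions only. The array with the conflicting description is in this experiment, and the part of a mislabelled sample in these values was not tested.

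Lists of related genes were read by their counts, with the brightest probe set standing for a gene. The lists were chosen with earlier results of these data known, so their counts are descriptions and not tests. Over all 8251 genes, 25 rose, 12 fell and the median change was 0.01, and at an unadjusted p under 0.05 there were 444 higher and 502 lower. Of 15 measured SOCS family members and STAT5 targets, Socs2 and Cish rose, Bcl6 fell and the median was 0.25. Igfals, the binding partner of circulating IGFs, had 1.10 ± 0.26 (adjusted p = 0.112). Of 17 components of the GH receptor, JAK and STAT pathway, 0 passed by limma on the probe set that stood for the gene, Stat3 having passed on its dimmer one, with 1 higher and 4 lower at an unadjusted p under 0.05. The median of the fitted changes was -0.30, or -0.17 without the 3 arrays of conflicting description, and the medians by experiment were -0.01, -0.16 and -0.21. Stat5a, Ptpn1 and Pias3 had -0.47 ± 0.11, 0.35 ± 0.14 and -0.98 ± 0.40. Of 18 genes of insulin and PI3-kinase signalling, Pik3r1 rose and the median was 0.04. The adaptor Irs2 and the receptor Igf1r had -0.79 ± 0.26 and -0.65 ± 0.22, and Irs3, near background, had 0.69 ± 0.23.

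Early response and growth genes gave 2 calls in each direction. Of 31 immediate early genes, Atf3 rose and Myc fell, with 4 higher and 7 lower at an unadjusted p under 0.05 and a median of -0.13. The mRNA-decay factors Zfp36 and Zfp36l1 had -0.95 ± 0.22 and -0.81 ± 0.22. Of 17 growth arrest and p53 target genes, Gadd45g rose and Gadd45a fell, the median was -0.10, and Sesn1 had -0.78 ± 0.24. Of 24 cell cycle and replication genes 0 passed and 2 had an unadjusted p under 0.05, the kinase Cdk1 (-0.80 ± 0.21) and the helicase subunit Mcm7 (-0.77 ± 0.21). The median of that list was -0.11, and Mcm2 and E2f1 had 0.40 ± 0.21 and -0.45 ± 0.24.

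Among genes of stored fat and of fuel use, Abhd5 and Adipor2 passed. Of 16 genes of lipolysis and fatty acid uptake Abhd5 rose, with a median of -0.05, and the lipase inhibitor G0s2 had 2.04, 1.47 and -0.65 in the 3 experiments. The droplet protein Plin4 and the fatty acid transporter Cd36 had -0.40 ± 0.18 and -0.35 ± 0.20. Of 12 adipokines and receptors Adipor2 rose, with a median of 0.02, and Apln, Angptl4 and Agt had 0.53 ± 0.12, -0.99 ± 0.27 and 0.38 ± 0.20. In the list of 15 genes for fatty acid and triglyceride synthesis 0 passed and 2 had an unadjusted p under 0.05. Those were the elongase Elovl5 (0.63 ± 0.13) and the acyltransferase Gpam (-0.63 ± 0.18), while Fads1 and Gpd1 had 0.40 ± 0.19 and 0.47 ± 0.24. Of 18 fat cell transcription factors 0 passed and 3 had an unadjusted p under 0.05, Stat5a, Klf5 (1.18 ± 0.49) and Foxc2 (-0.58 ± 0.24), with Gata3, near background, at 0.37 ± 0.20. Of 18 genes of fatty acid oxidation 0 passed and 4 had an unadjusted p under 0.05. The pyruvate dehydrogenase kinase Pdk4 had -2.64, -1.87 and 0.78 in the 3 experiments, and Acadvl, Ehhadh and Ucp1, all near background, had 0.88, 0.57 and 0.53. Of 13 genes in the glycolysis list 0 passed and 4 had an unadjusted p under 0.05, Pdk1 (-0.46 ± 0.12), Pgam1 (0.45 ± 0.15), Pfkl (0.29 ± 0.13) and Pkm (0.36 ± 0.16), with a median of 0.21.

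Lists of sterol synthesis, chaperones and ribosome biogenesis had most of their members on the higher side in the fit (15 of 17, 18 of 21 and 17 of 19, against 4208 of all 8251 genes), with medians near 0 in experiment 3. Of 17 sterol genes 0 passed, 8 were higher and 0 lower at an unadjusted p under 0.05, and the median was 0.50. Its medians by experiment were 0.63, 0.87 and -0.07. Msmo1, Idi1, Dhcr7 and the rate-limiting squalene epoxidase Sqle had 0.79 ± 0.23, 0.82 ± 0.25, 0.81 ± 0.27 and 1.19 ± 0.39. Of 21 heat shock proteins and chaperonins 0 passed, 8 were higher and 0 lower at an unadjusted p under 0.05, and the medians were 0.33, 0.41 and 0.07. Hsph1, Dnaja1, Cct3 and Hsp90aa1 had 1.10 ± 0.31, 0.75 ± 0.22, 0.52 ± 0.16 and 0.70 ± 0.24. Of 19 genes in the list of ribosome biogenesis and polyamine synthesis only Ppa1 passed, as higher. Ppa1 is the pyrophosphatase described above, which serves many syntheses and is not specific to these. In the list 6 were higher and 0 lower at an unadjusted p under 0.05. The medians by experiment were 0.60, 0.58 and -0.11, and Noc4l, Bop1 and Odc1 had 0.75 ± 0.18, 0.57 ± 0.16 and 0.50 ± 0.18. Without the 3 arrays of conflicting description 5 of this list passed as higher, against 1, while over all genes the count went from 25 to 75 higher and from 12 to 76 lower.

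**Figure D4:**
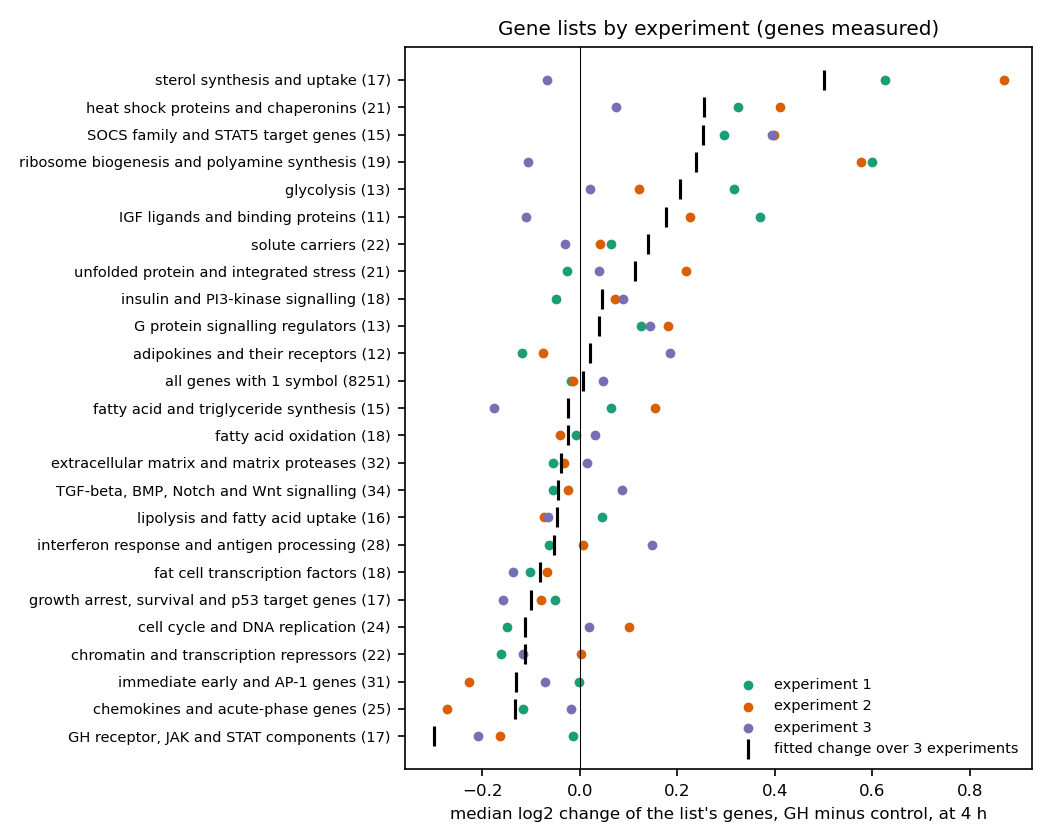
Median log2 change between GH and control (horizontal) over the measured genes of each of the 24 lists (vertical), with a coloured point for each experiment, a black bar for the median of the fitted changes, and all 8251 genes as a further line. The sterol and ribosome biogenesis lists lie above 0.5 in experiments 1 and 2 and slightly below 0 in experiment 3.

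Stress, immune and matrix lists had 3 genes that rose, and 0 that fell on the probe set standing for the gene. Of 21 unfolded protein and integrated stress genes Fkbp11 rose, with a median of 0.11. The transcription factor Xbp1 had 0.83 ± 0.16 (adjusted p = 0.0561), and Asns and Creld2 had 0.55 ± 0.15 and 0.65 ± 0.19. Of 28 interferon response genes Igtp and Ifi35 rose, the median was -0.05, and Iigp1 and Irf1 had 1.47 ± 0.48 and -0.47 ± 0.23. Of 25 chemokine and acute-phase genes 0 passed on the probe set that stood for the gene, with 2 higher and 6 lower at an unadjusted p under 0.05 and a median of -0.13. The pattern recognition protein Ptx3 and the chemokine Ccl9 had -0.84 ± 0.26 and 1.02 ± 0.33, and Cxcl14, near background, had -0.89 ± 0.29. Of 32 matrix genes 0 passed and 5 had an unadjusted p under 0.05, among them Thbs2 (-1.43 ± 0.33), Loxl1 (0.54 ± 0.15), Col6a3 (0.45 ± 0.14) and Timp1 (0.52 ± 0.19).

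In the last lists regulators again gave the calls. Of 34 genes of TGF-beta, BMP, Notch and Wnt signalling Gdf5 rose, the median was -0.04, and the receptor Notch1 had -1.02 ± 0.21 (adjusted p = 0.0606). Id1 had 0.42 ± 0.13, and Inhbb, near background, had -1.19 ± 0.46. Of 22 chromatin genes and repressors Bcl6 and Ezh1 fell and 0 rose, with 1 higher and 6 lower at an unadjusted p under 0.05 and a median of -0.11. Zmynd8 and Smarca2 had -0.85 ± 0.18 and -0.61 ± 0.19. Of 22 solute carriers 0 passed and 5 had an unadjusted p under 0.05, and the amino acid carriers Slc7a5 and Slc1a4 had 1.49 ± 0.32 and 0.78 ± 0.24. The taurine carrier Slc6a6 and the insulin-sensitive glucose carrier Slc2a4 had -0.60 ± 0.15 and 0.56 ± 0.25. Of 11 IGF ligands and binding proteins 0 passed on the probe set that stood for the gene and 3 had an unadjusted p under 0.05. Igfbp3, the main carrier of IGFs in blood, had 1.11 ± 0.27.

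Adipocyte markers were above background, and so were most preadipocyte and fibroblast markers. All 10 measured adipocyte markers were above background, and their summed signal ran from 64827 to 84375 on the control arrays and from 70052 to 74839 on the GH arrays. The 9 preadipocyte and fibroblast markers summed to between 22112 and 41501 in controls and between 19115 and 37515 with GH, and 1 was near background. In the fit 9 of the 10 adipocyte and 8 of the 9 preadipocyte and fibroblast markers were on the lower side with GH, against 4043 of 8251 genes. These changes were small, with medians of -0.07 and -0.16. Only 1 adipocyte and 3 preadipocyte and fibroblast markers were lower in every experiment, against 1326 of 8251 genes. At an unadjusted p under 0.05 by limma, 1 adipocyte marker was higher and 0 lower. For preadipocyte and fibroblast markers it was 0 higher and 2 lower. Of the 9 macrophage markers 6 were near background, with sums of 1928 to 4280 and 3074 to 3993. Of the 7 endothelial markers 6 were near background, with sums of 251 to 334 and 237 to 430. Of the 8 skeletal muscle markers 4 were near background, with sums of 918 to 1198 and 950 to 1231. No measured marker was at 0, and 0 markers of any list passed the limma test, with 6 at an unadjusted p under 0.05.

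Other genes and more of them passed at 4 h than at 30 min, each time being set against its own control arrays. At 30 min 10 probe sets passed (0.0805%), and 2 of them, both of Rgs16, were among the 45, which is 4.44% of the list at 4 h and 20% of that at 30 min. The difference between the GH effects at 4 h and at 30 min passed for 9 probe sets (0.0725%). In 5 of these the signed change was higher at 4 h than at 30 min. Pik3r1 had -0.24 at 30 min, which made a difference of 2.65 ± 0.31 (adjusted p = 0.00543). For Cish the effect at 30 min was 0.20 and the difference 2.31 ± 0.29 (adjusted p = 0.00753). Gdf5 and Adipor2 differed by 1.59 ± 0.24 and 1.17 ± 0.18. A probe set of Prkd2, a protein kinase D, differed by 2.62 ± 0.43 (adjusted p = 0.0462). Its own changes of 1.10 at 4 h and -1.52 at 30 min did not pass. The gene also has a brighter probe set, which was not among the 9. The probe set that differed is the ninth by p, and Prkd2 is named after its values were seen.

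In the other 4 the signed change was lower at 4 h than at 30 min. A probe set of Socs3, a feedback inhibitor of JAK kinases, went from 3.10 ± 0.21 at 30 min to 0.42 ± 0.21 at 4 h, a difference of -2.67 ± 0.30 (adjusted p = 0.00543). Zfp36 and Ier3, an early survival gene, differed by -2.36 ± 0.32 and -1.86 ± 0.26 (adjusted p = 0.0111 and 0.0168). Myc had 0.60 ± 0.15 at 30 min, which did not pass, and the difference of -1.71 ± 0.22 did (adjusted p = 0.00753). Without the block 2 of the 9 passed, Socs3 and Myc. Without the 3 arrays of conflicting description, a GH 30 min array among them, 13 probe sets passed, and 5 of the 9 were among these.

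At 48 h 158 probe sets passed (1.27%), and 22 of them were among the 45, which is 48.9% of the list at 4 h and 13.9% of that at 48 h. All 22 had the same sign at both times. Of the 31 that rose at 4 h, 30 were also higher at 48 h, with a median effect of 1.02 there. Of the 14 that fell, 11 were lower at 48 h, with a median of -0.29. The difference between the effects at 4 h and 48 h passed for 0 probe sets by limma (0%), with 1024 at an unadjusted p under 0.05, and for 1 without the block, Gja1 (adjusted p = 0.0194). With the block, nearest was Gja1, with 1.95 ± 0.21 at 4 h and -0.25 ± 0.21 at 48 h, a difference of 2.20 ± 0.30 (adjusted p = 0.0597). Next was the dim Igf1 probe set, with 1.77 ± 0.21 at 4 h and 3.65 ± 0.21 at 48 h (difference adjusted p = 0.103). Without the GH 4 h array of experiment 3 the difference passed for 58 probe sets.

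**Figure D5:**
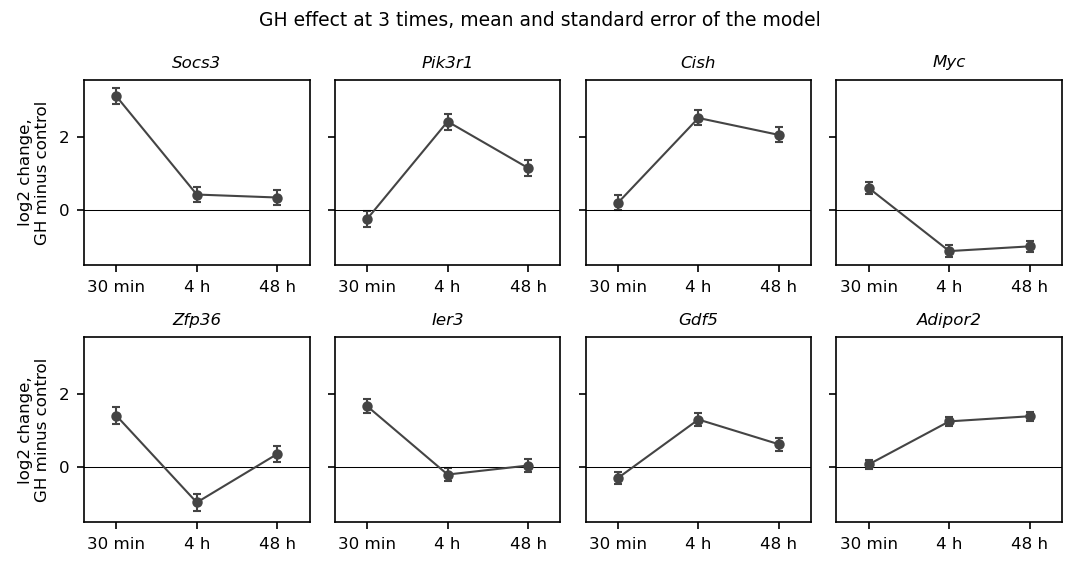
Log2 change between GH and control (vertical, ± SE, 3 arrays a group) at 30 min, 4 h and 48 h (horizontal, as categories) for the 8 genes with the lowest p for the difference between 4 h and 30 min. Pik3r1, Cish, Gdf5 and Adipor2 are near 0 at 30 min and higher at 4 h, Socs3 is highest at 30 min (3.10), and Myc is above 0 at 30 min and below it at 4 h and 48 h.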

How the data were processed

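The 18 arrays hold total RNA of 3T3-F442A adipocytes. The values analysed are the signal intensities that the authors deposited, 1 per probe set and array. The program that summarised the probes is not given in the sources used here, and the equal trimmed means show that the deposited signal values had been scaled per array. They were not normalized again. Values were taken as log2(signal + 25) and fitted with limma 3.58.1 in R 4.3.3, with a mean for each of the 6 groups over all 18 arrays, which then share an estimate of the spread. Experiment number entered as a block (10 residual degrees of freedom, against 12 without). Titles give that number, and it pairs the arrays. Deviations from the group mean correlated between control and GH arrays of the same experiment at 0.191, 0.160 and 0.298, and at most 0.0682 across experiments. Such deviations sum to 0 within a group, which lowers the correlations across experiments, so the gap is not a test of the pairing. Array number, 3 a group, limits the precision. Genes were named from the platform table and matched to RefSeq by gene ID for 10817 probe sets. Every probe set past 0.05 with 1 symbol is named, with all arrays for the 15 largest increases and 12 largest decreases, and up to 4 members of each list with the lowest p. Members and lists were chosen with earlier results of these data known. Alternatives were the block, the 6 arrays alone, pseudocounts of 10 and 100, a mean signal of at least 100, quantile scaling, equal medians, a trended robust variance and left-out arrays.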

Additional observations from a re-analysis of the deposited data

Results flagged for a closer look

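For 9 probe sets the effect of GH at 4 h differed from that at 30 min by limma. The difference on the log2 scale was 2.65 for Pik3r1, 2.31 for Cish, 1.59 for Gdf5 and 1.17 for Adipor2, with the higher signed value at 4 h. It was 2.62, also higher at 4 h, for a Prkd2 probe set that is not the brightest of its gene. It was -2.67 for Socs3, -2.36 for Zfp36, -1.86 for Ier3 and -1.71 for Myc, with the higher signed value at 30 min.

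For a further 8 of the 45 called at 4 h, every experiment moved the opposite way at another time. At 30 min Cxcl1 had 0.41, Chic1 -0.24, Abhd5 -0.21 and Rap1gap -0.15. At 48 h Kif3c had 0.20, Stk11ip 0.20, Ezh1 0.13 and Gja1 -0.25. Tested by limma, 0 of these 8 differences passed, with adjusted p from 0.0597 (Gja1, with 0.0194 without the block) to 0.211 (Rap1gap) and unadjusted p of 0.000564 or less. The change at 4 h by which the 45 were picked is part of each difference, which lowers these p-values. Of all 45, 42 had an unadjusted p under 0.05 by limma for the difference from 30 min, and 20 for that from 48 h. The share of all probe sets with such opposite changes was not counted, so the 8 are a description. Groups of 3 arrays were too small for a check of outlying arrays.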

How the results depend on the processing

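Of 143 named changes at 4 h (128 under the signal filter), 140 kept their sign in all 19 alternatives, the 45 calls among them, and 3 uncalled ones near 0 did not. Some alternatives leave the estimate itself unchanged, so no sign could change in them. They are the fit without the block, the fits of the 6 arrays alone, the signal filter and the trended variance. The dim Atf3 probe set had -0.0040 with quantile scaling. The second Tnfaip1 probe set ranged from -0.11 to 0.16 with 4 h arrays left out, and Socs1 from -0.077 to 0.34. Socs1 had -0.10 without the 3 arrays of conflicting description. Experiment number pairs the arrays, and without this replicate block 15 probe sets passed at 4 h (14 higher, 1 lower), 2 differed between 4 h and 30 min and 1 between 4 h and 48 h. Fitting the 6 arrays alone gave 0 (0 higher, 0 lower) with the block or without it, with 1112 and 794 at an unadjusted p under 0.05 by limma. A pseudocount of 10 gave 21 (18 higher, 3 lower). A pseudocount of 100 gave 118 (60 higher, 58 lower), with 14 and 12 for the differences from 30 min and 48 h. Keeping mean signals of 100 or more gave 133 (66 and 67), with 18 and 14. A trended robust variance gave 138 (75 and 63), with 16 and 13. Equal medians gave 30, with 18 higher. Without the 3 arrays of conflicting description 192 passed (93 and 99), 39 of the 45 among them, and 57 differed from 48 h. Both 4 h arrays of an experiment were also left out together, with its other arrays kept. That gave 8 to 176 (8 to 83 higher, 0 to 93 lower), 3 to 31 for 30 min and 0 to 66 for 48 h. Leaving out a single array at 4 h gave 15 to 210 (13 to 99 higher, 2 to 111 lower), 4 to 28 and 0 to 58. The highest counts came without the 4 h arrays of experiment 3, or its GH 4 h array only, and the cause was not tested. Another scaling moved the median change of all probe sets by under 0.1 on the log2 scale. Signals near background limit Chic1 and the other dim probe sets.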

Other observations

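Some of the largest changes did not pass the test, and the genes below were picked after their values were seen. Thbs2, which encodes a matrix protein that restrains vessel growth, went from a mean signal of 1372 ± 227 to 513 ± 209.5 (SD, n = 3). Its log2 changes were -1.08, -1.69 and -1.53 in experiments 1, 2 and 3 (adjusted p = 0.0963). Mnt, a repressor that pairs with the partner of Myc, had -1.39, -1.24 and -1.50 (adjusted p = 0.0645). Abcc3, a drug and bile salt transporter, had -1.32, -0.81 and -2.40 (adjusted p = 0.114). Inpp5j, an inositol phosphatase, had 1.10, 1.49 and 1.68, and Efna2, an ephrin, 1.11, 1.47 and 1.62 (adjusted p = 0.0645 and 0.0744). In these 5 picked genes the groups did not overlap, as was the case for 11.4% of all 12422 probe sets.

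Other large changes were those of experiments 1 and 2. Junb, a subunit of AP-1, had -3.61, -3.89 and -0.17 on its probe set with the largest change, with mean signals of 644 ± 521 to 44.0 ± 5.75 (SD, n = 3), and -1.08, -1.75 and -0.58 on another. Mmp11, a matrix protease, had -2.35, -2.63 and -0.24 (adjusted p = 0.0765), and Lfng, a modifier of Notch, 2.12, 2.25 and 0.33 (adjusted p = 0.0867). Without the 3 arrays of conflicting description, genes that were not called over all arrays passed by limma, among them Slc7a5 (2.02), Pdk4 (-2.04), Gadd45b (-1.86), G0s2 (1.63) and Dhcr7 (1.23).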
